A study of Mus musculus with 16 samples.

Results

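The Zfp genes encode zinc finger proteins, and the results describe the long-range contacts of their promoters in mouse liver. A promoter fragment was included when it was a bait, that is, when it stood in the first column of at least 1 of the 4 deposited lists, and when it held the start of an autosomal protein-coding gene whose symbol is Zfp followed by digits only. This choice used gene names and positions and no contact value. Of 337 such genes in GENCODE vM1 (mouse genome build mm9), 258 started on a bait, and these starts lay on 254 fragments of the 18165 baits in the lists. A further 17 Zfp genes started on fragments that were listed only as the other end of a pair, and 62 started on fragments that were not listed at all. The 254 fragments took part in 3902 of the 247177 distinct pairs in the 4 lists.

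Promoter Capture Hi-C cuts DNA in the nucleus with HindIII, ligates the cut ends that lie close together, and enriches the ligation products that hold a promoter. Male wild-type C57BL/6 mice, given as 8 weeks old in the labels and in the methods before a stay of 2 weeks in cycles of 12 h light and 12 h dark, had free access to food, and livers were taken at ZT0, ZT6, ZT12 and ZT18, where ZT0 is lights on and ZT12 is lights off. The 16 samples come from 3 pools of 2 livers at each timepoint, with pool A run on 2 lanes. The deposited lists hold 1 merged set of pairs per timepoint, so there is no replicate value and no test between timepoints. Intervals given here are 95% Wilson intervals that cover counting error only and treat contacts of 1 fragment as independent. The lists had 146262 to 154775 pairs, each with a CHiCAGO score of at least 5, and the read depth behind them was not analysed here.

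Most proteins of this family carry C2H2 fingers, short folds held by a zinc ion between a pair of cysteines and a pair of histidines, and tandem fingers read DNA sequence. Many also carry a KRAB domain, which recruits Trim28 (KAP1) and through it histone methyltransferase Setdb1 and HP1 proteins, and this group silences retroelements and marks imprinted loci. The genes multiplied by tandem duplication and lie in clusters, of which those on mouse chromosomes 7 and 13 are well known. Symbols of the family also cover proteins of other kinds, such as Zfp36 (tristetraprolin), which binds mRNA through CCCH fingers. In the translated GENCODE coding sequences, a median of 10 C2H2 fingers was found per fragment (range 0 to 36), and 10 fragments held a gene with none. A KRAB core as searched was found on 103 fragments. Chromosome 7 held 71 of the 254 fragments, chromosome 17 held 25, and chromosomes 8 and 13 held 21 each.

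The promoter stretches of 2 gene pairs are shown, Zfp235 with Zfp94 and Zfp595 with Zfp58, because these had the highest score of a Zfp pair in the family's clusters on chromosome 7 and on chromosome 13. Each is the 200 bases before the gene start, read 5′ to 3′ on the gene's own strand from mm9, and none overlaps an annotated exon. Capitals mark any match, on either strand, to GGGCGG (the GC box), to CCAAT (the box bound by NF-Y), to CGGAAG (the core bound by ETS factors), to GCATGCG (part of the NRF1 site), to ACTACA (part of the element bound by Zfp143) or to TATAAA (the TATA box).
Zfp235 (chr7:24918993-24919192, + strand): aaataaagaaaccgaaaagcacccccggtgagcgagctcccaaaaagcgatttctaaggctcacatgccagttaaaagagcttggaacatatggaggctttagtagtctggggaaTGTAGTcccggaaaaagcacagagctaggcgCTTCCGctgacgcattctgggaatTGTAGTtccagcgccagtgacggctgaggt
Zfp94 (chr7:25101686-25101885, - strand): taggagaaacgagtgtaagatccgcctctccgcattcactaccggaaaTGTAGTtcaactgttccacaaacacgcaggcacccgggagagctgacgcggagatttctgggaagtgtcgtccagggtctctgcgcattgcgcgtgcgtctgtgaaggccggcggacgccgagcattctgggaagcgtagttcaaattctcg
Zfp595 (chr13:67433497-67433696, - strand): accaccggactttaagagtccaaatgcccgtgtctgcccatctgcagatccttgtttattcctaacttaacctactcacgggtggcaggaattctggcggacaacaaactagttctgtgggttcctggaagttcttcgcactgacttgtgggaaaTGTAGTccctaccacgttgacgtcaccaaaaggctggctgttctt
Zfp58 (chr13:67627088-67627287, - strand): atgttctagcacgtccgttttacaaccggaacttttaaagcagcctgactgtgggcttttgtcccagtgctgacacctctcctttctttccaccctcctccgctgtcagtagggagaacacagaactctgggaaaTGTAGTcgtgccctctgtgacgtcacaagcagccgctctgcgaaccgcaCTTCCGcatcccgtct

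All 4 stretches held ACTACA or its complement TGTAGT, Zfp235 at 2 places and the others at 1. Zfp235 and Zfp58 also held 1 ETS core each, and none of the 4 held a GC box, a CCAAT box or a TATA box. Over the 258 Zfp genes, 50 had ACTACA in this window (19.4%, interval 15 to 24.6), against 1189 of 16197 other protein-coding genes with a bait at their start (7.34%, 6.95 to 7.75). The share was 29.7% (33 of 111) for Zfp genes in clusters (groups of at least 3 Zfp fragments at most 250 kb apart) and 11.6% (17 of 147) for the rest. The ETS core was in 26.7% of Zfp windows and 16.0% of the others, the GC box in 35.3% and 43.4%, the CCAAT box in 31.4% and 30.0%, the NRF1 part in 6.59% and 3.83%, and the TATA box in 4.65% and 8.38%. Genes of a cluster share ancestry, so their windows are not independent, and a match of letters is a description and not a binding site.

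Zfp promoters had about as many contacts as other promoters. The median was 5 contacts per fragment at each timepoint for the 254 Zfp fragments and for 14482 other protein-coding promoter fragments alike. Over all timepoints together the median was 11 for Zfp fragments (quartiles 4 and 19.75, highest 136) and 10 for the others (quartiles 4 and 22, highest 202). Only 1 contact was listed for 17 Zfp fragments, and more than 50 for 15. The lists of ZT0, ZT6, ZT12 and ZT18 held 2182, 2404, 2315 and 2362 Zfp pairs, which is 1.49%, 1.55%, 1.53% and 1.56% of each list.

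Distances and persistence over the day differed from those of other promoters by small amounts. Counted from each promoter, the median distance of a Zfp contact was 137.3 kb at ZT0, 141.7 kb at ZT6, 129.5 kb at ZT12 and 130.4 kb at ZT18, against 144.4, 145.8, 137.4 and 138.4 kb for other promoters. The shorter medians at ZT12 and ZT18 were thus seen in both groups. A Zfp contact was listed at all 4 timepoints in 30.7% of cases (29.3 to 32.1) and at 1 timepoint in 36.8% (35.3 to 38.3), and the shares for other promoters were 33.4% (33.3 to 33.6) and 34.3% (34.1 to 34.5). These intervals lay apart, with fewer Zfp contacts in all 4 lists and more in a single list. Contacts of 1 fragment are not independent, which the intervals do not cover. A pair that is absent from a list may lie just under the score limit. When another end within 10 kb counted as the same contact, 66.2% of the 3902 Zfp pairs were found at all 4 timepoints. This share was not computed for other promoters, so it does not show whether the difference between the groups remains.

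A larger share of the contacts of Zfp promoters ended on baits than for other promoters. Counted from each promoter, 36.3% of Zfp contacts (1490 of 4109, interval 34.8 to 37.7) ended on another bait, against 27.3% (64656 of 236522) for other promoters. The Zfp share was 39.8%, 37.6%, 38.8% and 39.8% in the lists from ZT0 to ZT18, against 28.8%, 27.1%, 28.8% and 29.1%, so each list showed the difference. A high share was not particular to Zfp promoters, as it was 61.2% (2547 of 4159) for promoters of olfactory receptor genes. More baits lay near Zfp promoters, with a median of 9 other baits within 250 kb against 7 for other promoters. For olfactory receptor promoters the median was 11. Of possible pairs under 100 kb with baits that hold no Zfp start, 40.1% were listed for Zfp promoters and 36.6% for other promoters. From 100 to 250 kb these shares were 27.6% and 29.6%, and from 250 to 500 kb they were 13.4% and 13.5%. Of the 1283 distinct pairs between a Zfp fragment and a bait, 207 joined it to another Zfp fragment and 98 to the promoter of another gene with at least 3 C2H2 fingers. The other 901 and 77 joined it to promoters of other protein-coding genes and to baits of other kinds. Contacts of 53 Zfp fragments (20.9%, 16.3 to 26.3) were with baits alone, as were those of 2004 other promoters (13.8%). Zfp235 was such a fragment with all 16 of its contacts on baits, while Zfp94 had 18 of 102. Whether such fragments were captured well themselves was not tested. Among fragments with at least 1 contact to a fragment that is no bait, the shares were 31.8% for Zfp promoters and 24.6% for the others.

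The listing rate is the share of possible fragment pairs at a given distance that were listed at any timepoint. It takes account of distance and of the baits present, and no other trait of the neighbourhood was matched. Both fragments had to hold the start of a protein-coding gene. Between 100 and 250 kb, 67 of 131 possible pairs of Zfp fragments were listed (51.1%, 42.7 to 59.5), against 28.0% (25.5 to 30.7) for a Zfp fragment with another promoter and 30.2% (29.7 to 30.7) for a pair of other promoters. Between 250 and 500 kb the rates were 35.3% (42 of 119, 27.3 to 44.2), 14.1% and 13.7%. Between 500 and 1000 kb they were 16.7% (15 of 90, 10.4 to 25.7), 3.14% and 3.19%. Many of those 15 pairs came from 1 locus of chromosome 7, joining the cluster from Zfp787 to Zfp28 with that from Zfp954 to Zfp418. Only 1 of the 15 was in all 4 lists. From 100 to 1000 kb the intervals of Zfp pairs thus lay apart from the other classes, and Zfp fragments paired with other promoters at about the common rate. Between 1000 and 2000 kb the rates were 2.24% (3 of 134, 0.764 to 6.38), 0.798% (0.589 to 1.08) and 0.493% (0.457 to 0.532), where the first overlapped the second and the second lay above the last. Under 50 kb the rates were 51.7% (41.4 to 61.9), 42.2% (36.7 to 47.9) and 36.8%, with overlap between the first and the second.

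**Figure D1:**
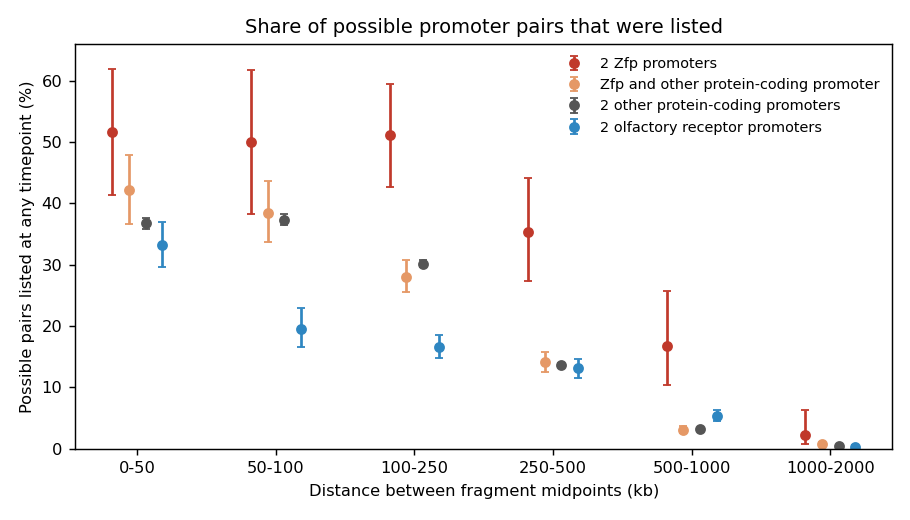
Percentage of possible promoter pairs listed at any timepoint, by distance between fragment midpoints in kb, for pairs of Zfp promoters, of a Zfp and another promoter, of other protein-coding promoters and of olfactory receptor promoters. Points are shares and bars are 95% Wilson intervals, and pairs of Zfp promoters lie above the other classes from 100 to 1000 kb (51.1%, 35.3% and 16.7%).

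Pairs of Zfp promoters had the higher rate in every list. Between 100 and 250 kb, 37.4%, 35.1%, 33.6% and 35.1% of possible Zfp pairs were in the lists of ZT0, ZT6, ZT12 and ZT18, against 20.1%, 19.3%, 20.6% and 20.4% of pairs of other promoters. Between 250 and 500 kb the shares were 18.5%, 22.7%, 21% and 23.5%, against 7.28%, 7.46%, 7.59% and 7.66%. Pairs listed at all 4 timepoints made up 22.9% (16.5 to 30.8) of the possible Zfp pairs between 100 and 250 kb and 11.8% of the others, and 10.1% (5.86 to 16.8) and 3.12% between 250 and 500 kb. With a score of at least 10 the rates were 21.4% (15.2 to 29.2) and 9.05% between 100 and 250 kb and 10.1% and 2.72% between 250 and 500 kb. Between 500 and 1000 kb no Zfp pair reached that score (0 of 90, which allows a share of up to 4.09%), and 0.427% of the others did. Pairs listed at all 4 timepoints made up 1.11% (1 of 90, 0.196 to 6.03) and 0.403% there, with overlap.

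From 100 to 500 kb the higher rate was seen between Zfp promoters and not with their other neighbours. Its cause was not tested. The Zfp fragments in clusters were listed with other promoters at 26.7% between 100 and 250 kb and at 14.9% between 250 and 500 kb, close to the common rates. Zfp pairs outside a shared cluster were listed at 39% between 250 and 500 kb (16 of 41, 25.7 to 54.3), and pairs in 1 cluster at 33.3% (26 of 78, 23.9 to 44.4). Olfactory receptor genes also lie in tandem clusters, and pairs of their promoters were listed at 16.6% (14.8 to 18.5) and 13.1% at these distances. Their fragments had fewer contacts of any kind, with a median of 4 over all timepoints against 11 for Zfp fragments. The rates were not matched for this, so they do not show how tandem clustering bears on the rate. Related genes can share sequence, which affects where reads map. Among Zfp pairs with no 31-base word in common, the rates were 52.9% (45 of 85, 42.4 to 63.2) between 100 and 250 kb and 35.6% (36 of 101, 27.0 to 45.4) between 250 and 500 kb. In the bin from 100 to 250 kb, pairs with 1 to 99 words in common were listed at 42.9% (18 of 42, 29.1 to 57.8) and pairs with 100 or more at 100% (4 of 4, 51 to 100). Between 250 and 500 kb, 33.3% (6 of 18) of pairs with 1 to 99 were listed. Zfp235 with Zfp94 and Zfp595 with Zfp58 shared 0 such words. Only exact words common to both fragments of a pair were counted. Similar but unequal sequence, and sequence shared with other genes, were not covered, so an effect of mapping was not tested. Among fragments with at least 1 contact to a fragment that is no bait, the Zfp rates were 58.0%, 39.3% and 21.7% in the bins from 100 to 1000 kb, against 31.4%, 13.9% and 3.04% for other promoters.

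Of the 207 listed Zfp pairs, 133 were in the list of ZT0, 133 in that of ZT6, 140 in that of ZT12 and 146 in that of ZT18, and 85 (41.1%, 34.6 to 47.9) were in all 4. They involved 138 of the 254 fragments, and 105 lay on chromosome 7 and 39 on chromosome 13. The highest score belonged to Zfp235 and Zfp94, 181.7 kb apart, with 65.43, 76.43, 60.12 and 69.53 at ZT0, ZT6, ZT12 and ZT18. Zfp235 was also listed with Zfp112 and Zfp93, and 8 of its 16 contacts were Zfp promoters. Zfp329 and Zfp128 followed at 59.3 kb with 34.79, 23.67, 31.55 and 33.12, and Zfp787 and Zfp444 at 15.5 kb with 20.41, 17.31, 17.97 and 32.04. All 10 pairs with the highest scores were listed at every timepoint. They were ranked by their highest score in these same lists, so presence in all 4 was favoured by the choice. Both Zfp235 and Zfp94 encode proteins with many C2H2 fingers, 15 and 11 as searched.

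Zfp fragments at most 250 kb apart, in groups of at least 3, formed 19 clusters with 110 fragments, 9 of them on chromosome 7. Of 347 possible pairs inside clusters 161 were listed, and 1 cluster, on chromosome 15, had none. The KRAB core was found on 103 fragments, of which 62 (60.2%) were in clusters, against 48 of the other 151 (31.8%). Fragments with the core had a median of 9 contacts, and those without it had 12. Between 100 and 250 kb, 44% of possible pairs with the core on both fragments were listed (22 of 50, 31.2 to 57.7), 42% of those with it on 1 (21 of 50, 29.4 to 55.8) and 77.4% of those with it on none (24 of 31, 60.2 to 88.6). Between 250 and 500 kb the rates were 42.1%, 34% and 29.4%, and their intervals overlapped. A wider form of the core, ending in E and then W or L, was found on 111 fragments, of which 70 were in clusters. With this form the rates from 100 to 250 kb were 51.7% (39.2 to 64.1), 43.9% and 75% (50.5 to 89.8), with overlap.

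On chromosome 13, 13 fragments between positions 67160626 and 67882255 formed the largest cluster, from Zfp712 to Zfp493. Of 78 possible pairs 37 were listed, with 24, 25, 28 and 28 at ZT0, ZT6, ZT12 and ZT18. Zfp595 and Zfp58 were each listed with all 12 other Zfp fragments of the cluster, and 23 of the 37 pairs involved one of them. Without this pair of fragments, 14 of 55 possible pairs were listed (25.5%). The pair Zfp595 and Zfp58, 193.7 kb apart, had scores of 12.23, 23.42, 27.17 and 24.3. Both also contacted the promoter of Zfp874a, a neighbour whose symbol falls outside the naming rule, with scores up to 37.88 and 34.78.

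On chromosome 7, 11 fragments between 24896333 and 25376171 formed a cluster from Zfp112 to Zfp575 with 22 of 55 possible pairs listed. Zfp94 was listed with 9 of its 10 neighbours, and Zfp112 and Zfp235 with 7 each. These 3 enclose the genes that lie between them, and pairs among those were rare. Zfp114, Zfp111, Zfp109, Zfp108, Zfp93 and Zfp61 gave 1 such pair, Zfp111 with Zfp61. No KRAB core as searched was found in this cluster, so its pairs are among those counted as having it on none. The search would miss a KRAB domain whose core differs from the pattern, so absence of the domain was not shown.

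A second cluster of chromosome 7, with 12 fragments between 30550697 and 30967964 from Zfp84 to Zfp146, was arranged differently. It had 34 of 66 possible pairs, and every fragment had 3 to 9 of the 11 possible partners. Its strongest pair was Zfp84 and Zfp30, 16.1 kb apart, with scores of 15.97, 17.33, 25.35 and 22.31. It includes Zfp568, a repressor needed in early embryos, which had 7, 7, 7 and 6 contacts.

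**Figure D2:**
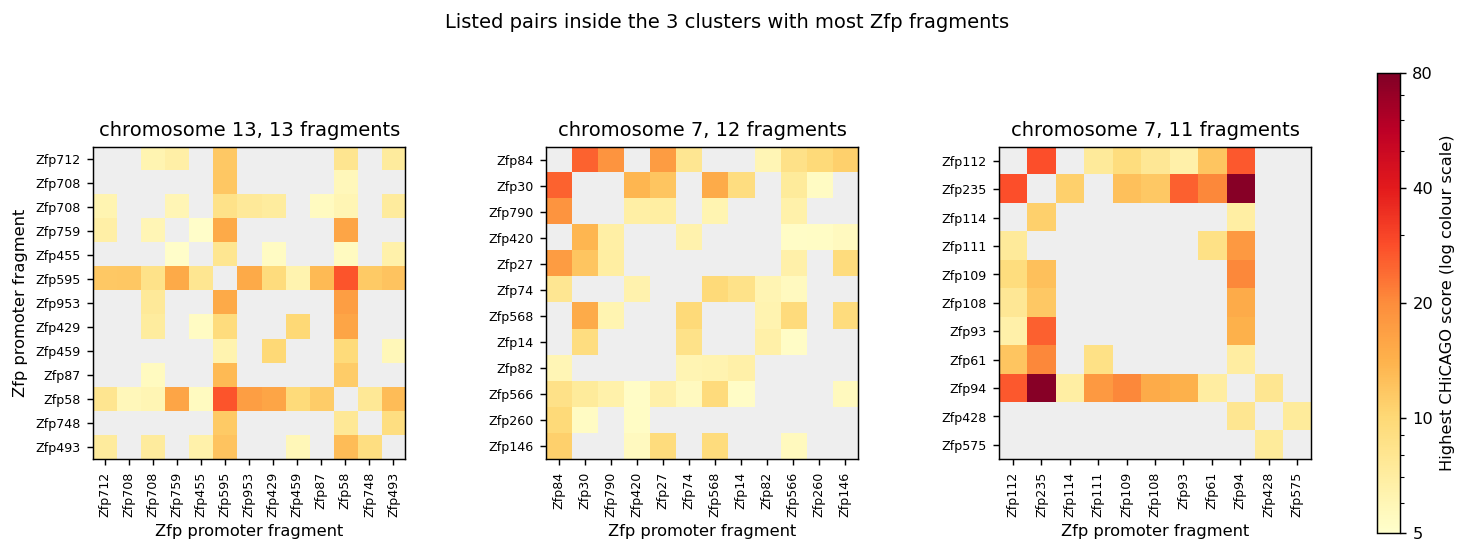
Highest CHiCAGO score over the timepoints (log colour scale from 5 to 80) for each pair of Zfp promoter fragments in the 3 clusters with most fragments, in genomic order on both axes, with grey for pairs not listed. Rows of colour mark Zfp595 and Zfp58 on chromosome 13, listed with all 12 other fragments, and Zfp112, Zfp235 and Zfp94 in the cluster of 11 on chromosome 7. In the cluster of 12 pairs are spread.

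Other clusters ranged from dense to nearly empty. The 6 fragments on chromosome 6 between 47769635 and 48046751, from Zfp786 to Zfp746, had 12 of 15 possible pairs, and Zfp398, Zfp212 and Zfp746 had all 5 partners. The 7 on chromosome 17 between 21516030 and 21871125 had 5 of 21, and 4 of those 5 included Zfp52. Neither the number of pairs per timepoint in the former (9, 9, 9 and 12) nor in the latter (1, 2, 3 and 1) was tested for a difference over the day.

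Between clusters 11 pairs were listed, all on chromosome 7, and the number of possible pairs was not counted. Zfp524 was listed with Zfp787 over 1141.2 kb and with Zfp444 over 1156.7 kb at all 4 timepoints. The between-cluster pairs of 732.3 to 964.3 kb all joined the cluster of 6 fragments from Zfp787 to Zfp28 with that of 3 from Zfp954 to Zfp418. Among them Zfp78 with Zfp954, at 746 kb, was in 3 lists, and none was in all 4. Zfp94 with Zfp719, at 25730.2 kb, was listed at ZT0 with a score of 7.25, and Zfp128 with Zfp235, at 11457 kb, at ZT6 with a score of 5.97. Other pairs of similar span were listed beside both. Zfp94 was also joined to a fragment 25822 kb away at ZT12 with a score of 5.19, and to a fragment overlapping Mzf1, another C2H2 gene, 11464.5 kb away at ZT6 with a score of 7.11. Each of these 4 pairs was in a single list. In all, 16 Zfp pairs spanned more than 2000 kb, and 1 joined different chromosomes, Zfp760 with the fragment of Sfi1 at ZT6 with a score of 8.32.

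Zfp promoters were also listed with fragments inside Zfp genes that are no bait. Starts of the 17 Zfp genes listed only as the other end of a pair were not counted apart here. For fragments that are no bait and lie inside a Zfp gene, 9.88% of possible pairs (196 of 1983, 8.65 to 11.3) were listed with Zfp promoters between 100 and 250 kb, against 5.52% (440 of 7967, 5.04 to 6.05) with other promoters. Between 250 and 500 kb the rates were 4.62% (3.74 to 5.69) and 1.5% (1.31 to 1.71). Under 100 kb, where a promoter's own gene is included, they were 7.23% and 6.79% with overlapping intervals. Fragments with many contacts weigh most in these counts, and the rates were not computed without them. Zfp595, Zfp94 and Zfp58, all in clusters, had 136, 102 and 74 contacts, of which 21, 18 and 21 were on baits. For fragments inside other protein-coding genes the order was turned beyond 100 kb, with 5.91% (5.40 to 6.45) from Zfp promoters and 6.59% (6.53 to 6.65) from others between 100 and 250 kb, and 1.45% and 2.07% between 250 and 500 kb.

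**Figure D3:**
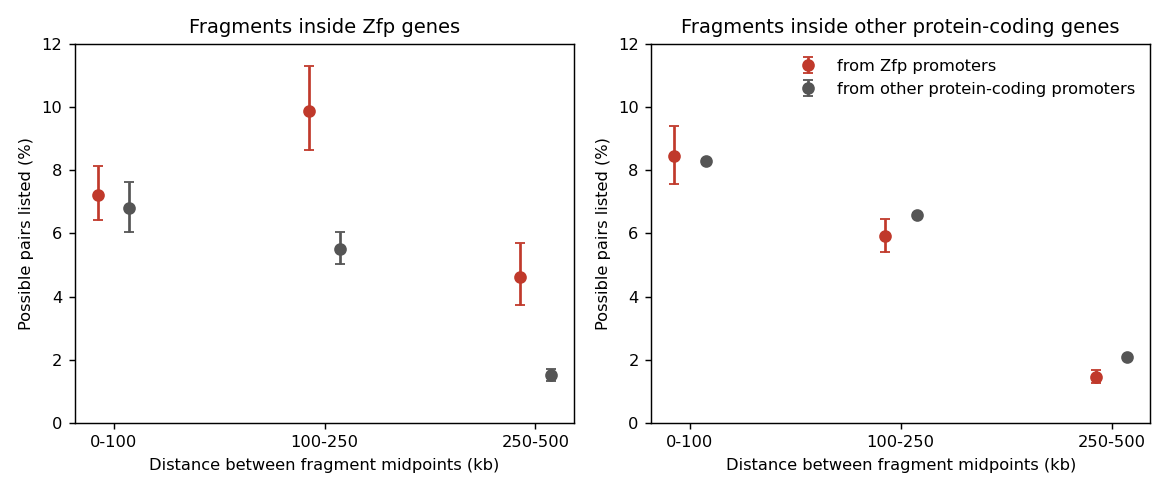
Percentage of possible pairs listed between promoters and fragments that are no bait, inside Zfp genes (left) and inside other protein-coding genes (right), by distance in kb, with 95% Wilson intervals. From Zfp promoters, fragments inside Zfp genes were listed at 9.88% and 4.62% beyond 100 kb, above the 5.52% and 1.5% from other promoters.

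The 10 Zfp fragments with most contacts had 58 to 136 over all timepoints. Zfp595 led with 67, 117, 77 and 83 contacts at ZT0, ZT6, ZT12 and ZT18, and 24 of its 136 contacts were listed at ZT6 alone. Zfp219 on chromosome 14, with 9 fingers as searched, had 76, 87, 87 and 58. Its 3 strongest contacts were on fragments that are no bait, 105.2, 112.6 and 115.9 kb away, with scores up to 45.91, 47.49 and 42.77, and the first of these overlaps Ndrg2. Zfp94 had 77, 74, 87 and 87, and 63 of 102 (61.8%) were in all 4 lists, the largest share among these 10. Zfp58 had 34, 41, 46 and 63, with 15 at ZT18 alone. Zfp128 was nearly even with 52, 55, 52 and 53, and its contacts included, 157 kb away, the bait with the starts of Chmp2a and Ube2m that also overlaps Trim28, with scores of 15.26, 20.82, 13.28 and 15.03. The other 5, Zfp398, Zfp541, Zfp513, Zfp526 and Zfp277, had 23 to 50 contacts in each list.

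**Figure D4:**
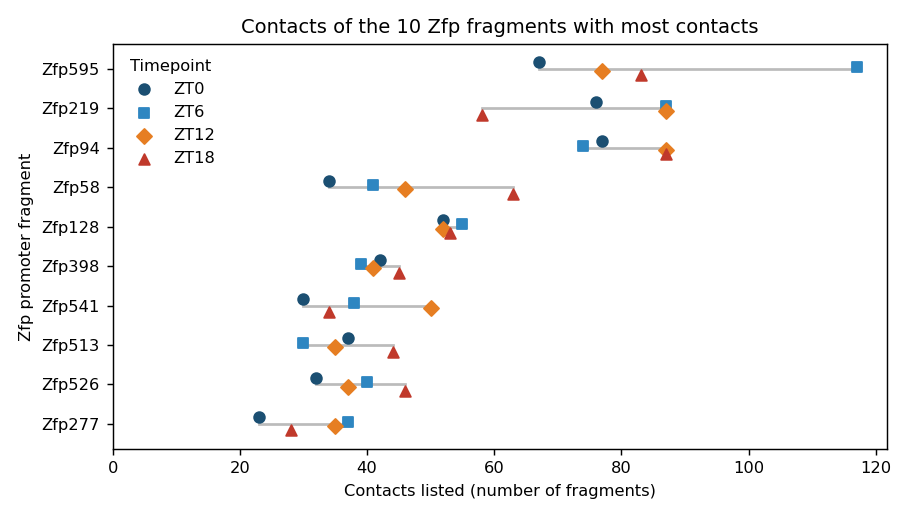
Number of contacts at ZT0, ZT6, ZT12 and ZT18 for the 10 Zfp promoter fragments with most contacts, with a grey line from the lowest to the highest timepoint. Zfp595 stands out at ZT6 with 117, and Zfp128 stays between 52 and 55.

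The strongest contact of any Zfp promoter with a gene outside the family was that of Zfp493 with Gm9894, 5.8 kb apart, with scores of 103.78, 34.95, 96.45 and 115.95. The fragment of Zfp335, a regulator needed in neural progenitors, and that of Pltp, which encodes the phospholipid transfer protein of plasma, were 58.6 kb apart with 39.53, 55.63, 48.01 and 50.88. Zfp719 was listed with Ctu1, a tRNA thiolation enzyme, at 96.5 kb with 30.44, 35.63, 41.01 and 45.67. Zfp750 was listed with Fn3k, a kinase that removes sugar adducts from proteins, at 86.3 kb with 35.91, 24.4, 37.32 and 41.35. All 4 were in every list.

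Between ZT0 and ZT12, the 2 changes of light, few Zfp promoters differed in their number of contacts. A promoter was counted when its number, divided by the list total, differed at least 2-fold and reached 10 contacts at the higher timepoint, and 85 Zfp fragments had enough contacts. At ZT12 3 of them had more (3.53%), where 2.8% of all 5364 protein-coding promoters did, and at ZT0 3 had more (3.53%), where 2.57% of all did. Both shares are near those of all promoters. The 3 with more at ZT12 were Zfp516, a cofactor of brown fat genes, with 3 and 10 contacts at ZT0 and ZT12, Zfp189 with 7 and 18, and Zfp865 with 5 and 11. Those with more at ZT0 were Zfp109 with 11 and 5, Zfp579 with 11 and 5, and Zfp113 with 10 and 5. The median fold of ZT12 over ZT0 was 0.965 for Zfp promoters and 1.01 for all.

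Between ZT6 and ZT18, 90 Zfp fragments had enough contacts. At ZT18 4 had more (4.44%), where 3.38% of all 5527 promoters did, and at ZT6 1 had more (1.11%), where 2.51% of all did. Those with more at ZT18 were Zfp579 with 4 and 12 contacts at ZT6 and ZT18, Zfp90 with 4 and 11, Zfp61 with 9 and 22, and Zfp786 with 5 and 11. Zfp114 had 20 contacts at ZT6 and 4 at ZT18, a 4.89-fold difference, with 6 at ZT0 and 4 at ZT12. It had 1 contact in all 4 lists, that with Zfp235, at 10.43, 6.88, 10.47 and 10.8. Zfp579 was low at both ZT6 (4) and ZT12 (5) and high at ZT0 (11) and ZT18 (12). With 1 list per timepoint none of these differences has a replicate check. Timepoint names follow the deposited files, and a summary table of the study pairs the list totals of ZT6, ZT12 and ZT18 in another order, so the direction of these differences depends on which is right.

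**Figure D5:**
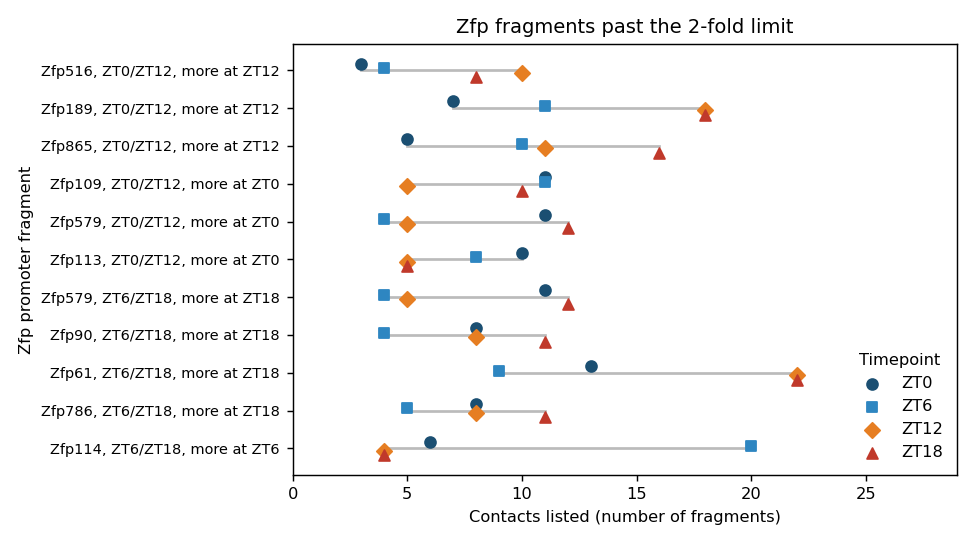
Number of contacts at each timepoint for the Zfp promoter fragments with at least a 2-fold difference between ZT0 and ZT12 or between ZT6 and ZT18, with the comparison and the higher timepoint beside each name and a grey line from the lowest to the highest value. Zfp114 stands apart with 20 contacts at ZT6 and 4 to 6 at the other timepoints.

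The timepoint with most contacts, as a share of the list, was ZT0 for 77 of the 254 Zfp fragments (30.3%), ZT6 for 58 (22.8%), ZT12 for 45 (17.7%) and ZT18 for 74 (29.1%). For other promoters the shares were 31%, 20.3%, 21.5% and 27.2%, each inside the interval of the Zfp share. The list of ZT0 was the shortest, so a tie in number with another timepoint counted for ZT0. Among 138 Zfp fragments with at least 10 contacts the shares were 26.8%, 27.5%, 17.4% and 28.3%. Those of other promoters were 26.2%, 23.3%, 24% and 26.5%. The 6 Zfp genes that the study lists as circadian in RNA of the same experiment, a list chosen on related samples, had contacts as follows. Zfp324 had 31, 34, 32 and 33 and varied least in proportion. Zfp787 had 11, 11, 15 and 19, and Zfp867 had 12, 15, 13 and 10. Zfp295 had 3, 4, 7 and 5, Zfp428 had 8, 8, 9 and 8, and Zfp161 had 2, 3, 2 and 2. None of the 6 passed the 2-fold rule in either comparison. Zfp295, Zfp428 and Zfp161 had fewer than 10 contacts in every list, so the rule could not count them.

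Members with known roles spanned the range of contact numbers. Zfp91, a zinc finger protein with ubiquitin ligase activity, had 22, 27, 22 and 20 contacts. Zfp57, which protects imprinted methylation, had 16, 17, 15 and 10, and Zfp809, which silences retroviral DNA, had 2, 1, 3 and 2. Zfp143, an activator bound near many gene starts, had 6, 9, 11 and 6. Zfp281 had 8, 16, 16 and 13, and Zfp148, which like it binds GC-rich DNA, had 1, 0, 0 and 1. Zfp598, a ubiquitin ligase of ribosome quality control, had 15, 12, 14 and 12 on a fragment that also holds the starts of Slc9a3r2 and Npw. Zfp207, a spindle protein, had 5, 7, 6 and 5, and Zfp36 had 1, 4, 2 and 5. Zfp42 (REX1) and Zfp423 were not in the lists.

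Promoters of the silencing machinery that KRAB proteins use had similar numbers. Of the 20 genes considered, Setdb1 and Hdac2 were not in the lists and Fam208a was not found under that symbol in the annotation. Trim28, the corepressor itself, had 20, 20, 16 and 19 contacts. The remodelling enzyme Chd4 had 17, 31, 27 and 18, and Mphosph8 of the HUSH complex had 15, 20, 15 and 15. Of the HP1 genes, Cbx1 had 1, 3, 2 and 3, Cbx3 had 4, 3, 2 and 2, and Cbx5 had 2, 3, 4 and 4. The maintenance DNA methyltransferase Dnmt1 had 3, 6, 5 and 4 and its partner Uhrf1 5, 3, 2 and 1. The median over the 18 gene records with a bait was 5, 6, 5.5 and 7, against 5 at each timepoint for all other protein-coding promoters.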

How the data were processed

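Promoter Capture Hi-C of mouse liver was deposited as 1 list of fragment pairs per timepoint. Per the study's methods the authors mapped reads with HiCUP and called interactions with CHiCAGO, and the build is mm9 per the labels; versions are not given in the sources used here. The deposited values are CHiCAGO scores, made by the authors from the merged pools and listed from 5 upwards; they carry no read counts. Here pairs were taken as unordered, and a fragment in the first column of any list was called a bait. Gene starts of GENCODE vM1 were placed on HindIII fragments of mm9, and 18164 of 18165 baits matched a fragment exactly. Distances are between fragment midpoints. In listing rates, a fragment counts as possible only if it was a bait, and thus listed at least 1 time. Shares have 95% Wilson intervals, and pairs of 1 fragment are not independent. No test was run, since each timepoint has 1 list.

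Fingers (C, 2 to 4 residues, C, 12 residues, H, 3 to 5 residues, H) and the KRAB core (D, V or I, 2 to 4 residues, F or L, S or T, 2 residues, E, W) were searched in translated GENCODE coding sequences in place of the RefSeq proteins that had been planned. Named genes are the 10 fragments with most contacts, the 10 strongest Zfp pairs, up to 3 of the largest folds per direction, the 5 largest clusters, the study's circadian Zfp genes and lists of known Zfp genes and KRAB partners; Zfp786, the 4 pairs with genes outside the family, the long pairs and the motifs were added after values were seen. The members and lists were chosen with earlier results of these data known. Python 3.11.15 with pandas 2.3.3, scipy 1.17.1 and matplotlib 3.10.9 was used, and functions were tested on simulated data. Alternatives were other score limits, list lengths, fragment sets, cluster gaps, folds and the order of the lists.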

Additional observations from a re-analysis of the deposited data

How the results depend on the processing

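No paired analysis was possible because interactions were called once per timepoint on merged pools, and for the same reason no replicate could be left out. Of 71 comparisons with an alternative, 39 moved by less than the counting interval or, for counts, by at most 1.5 times, and 32 moved by more. The alternatives of fragments with a non-bait contact, of named fragments or clusters left out, and of the wider KRAB core were chosen after seeing the data. A score limit of 7 left 1055, 1182, 1179 and 1139 Zfp pairs at ZT0, ZT6, ZT12 and ZT18, and a limit of 10 left 444, 510, 514 and 492. At a limit of 10 the median number of contacts was 1, the median distance 131.8 kb (152.9 kb as listed), the share joining another bait 50.9% and the share joining another Zfp promoter 8.76% (5.30% as listed). The listing rates of Zfp pairs from 100, 250 and 500 kb were then 21.4%, 10.1% and 0%, and for pairs listed at all 4 timepoints 22.9%, 10.1% and 1.11%. Fragments with a non-bait contact had a median of 13 contacts and 31.8% on baits. Another end within 10 kb raised the share at all 4 timepoints to 66.2%. Without the 3 largest clusters the listing rates of Zfp pairs at any timepoint were 44.6% (33.2 to 56.7), 37.5% and 16.2%, and without Zfp595, Zfp58, Zfp235 and Zfp94 they were 42.9%, 31.5% and 17.2%. Both alternatives kept the chromosome 7 clusters from Zfp787 to Zfp28 and from Zfp954 to Zfp418.

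The counts of 2-fold differences depended on the setting. Without division by the list total 7 Zfp promoters had more at ZT12 than at ZT0, and 3 more at ZT6 than at ZT18. With at least 20 contacts 0 had more at ZT12, 0 at ZT0 and 1 at ZT18. With a fold of 1.5 the counts were 13 at ZT12, 8 at ZT0, 13 at ZT18 and 8 at ZT6. A table of the study assigns the list totals to timepoints in another order, and with the lists read in that order 1 had more at ZT0 than at ZT12 and 3 had more at ZT6 than at ZT18. The cause was not tested.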
